A study of Homo sapiens with 8 samples.

Results

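The MYC locus was described over the 1250 kb of chromosome 8 from 128050000 to 129300000 (build hg19, counted from 1), which hold the gene MYC, the long noncoding RNA gene PVT1 and the distal enhancers of MYC in lymphoblastoid cells. All rows of the 6 deposited peak lists that overlapped this window were taken, 379 of 224694 peaks. Within these bounds position alone chose them. The lists came from ChIP-seq of 3 chromatin proteins in GM12878, with 2 libraries for each protein. GM12878 is an established line of B lymphocytes of 1 donor, made to grow without limit by Epstein-Barr virus. The cells were untreated, so every library had the same genotype and state and differed by the antibody: NIPBL, SMC1A or MED1. Peaks of each library were called against the same pooled control, 2 libraries of whole cell extract. No label says that the replicates came from separate cultures, so their spread may be technical.

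MYC encodes a transcription factor that drives cell growth and division, and it is controlled in each cell type by different enhancers, many of them far from the gene. In lymphoblastoid cells viral nuclear proteins bind enhancers far upstream, which contact the MYC promoter by DNA looping. PVT1 lies next to MYC on the side away from these enhancers and holds enhancers and a promoter of its own. NIPBL loads the cohesin ring onto DNA and helps it to extrude loops, SMC1A is a core subunit of that ring, and MED1 is a subunit of Mediator, which carries the signal of enhancer-bound factors to RNA polymerase II. Cohesin also gathers where the insulator protein CTCF stops it, often with little of its loader.

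The window was divided by the positions that define the locus. MYC starts at 128748315. The far and the near enhancer segments are the 50 kb around the points 525 and 430 kb before that start. The MYC promoter and the PVT1 start are the stretches within 2.5 kb of each gene's first base, and PVT1 spans 128806779 to 129113499. Distances below are from the MYC start, negative on the side of the enhancers. In RefSeq's gene order (GRCh38.p14, used for names alone) CASC11 is the gene before MYC and PVT1 the gene after it, POU5F1B and GSDMC are the nearest protein-coding neighbours, and 4 microRNA genes, MIR1204 to MIR1207, lie within PVT1. A peak belongs to the segment that holds its summit. A region is the merge of overlapping peaks of both replicates of a protein, and belongs to the segment that holds its midpoint. Fold enrichment is the authors' own linear ratio of ChIP signal to control at a summit. Fold enrichments of lists of different depth are not on 1 scale, so strength is also given as the percentile of a peak within its own list.

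The window held 66 and 46 NIPBL peaks in replicates 1 and 2, 64 and 75 SMC1A peaks, and 45 and 83 MED1 peaks. Depth was estimated by the lowest control value recovered at any peak of a library, since the lists hold no read totals. By this estimate MED1 replicate 1 was the deepest library, and the others had 0.743 to 0.965 of its value. The lowest summits called in the window had 12 to 18 fragments, by library, beside 7 to 11 over the whole lists. Binding too weak to be called could not be seen. Of the window's peaks, 60.6% and 91.3% of NIPBL replicates 1 and 2 overlapped a peak of the other replicate, beside 55.6% and 79.3% over the whole lists. For SMC1A these shares were 90.6% and 72.0%, beside 92.0% and 75.6%. For MED1 all 45 peaks of replicate 1 but 33.7% of those of replicate 2 recurred, beside 99.0% and 33.5%. The replicates therefore differed within the window much as they did across the genome, and MED1 differed most. Of 11635 NIPBL regions seen in both replicates 39 lay in the window, as did 49 of 51020 SMC1A regions and 28 of 15007 MED1 regions.

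**Figure D1:**
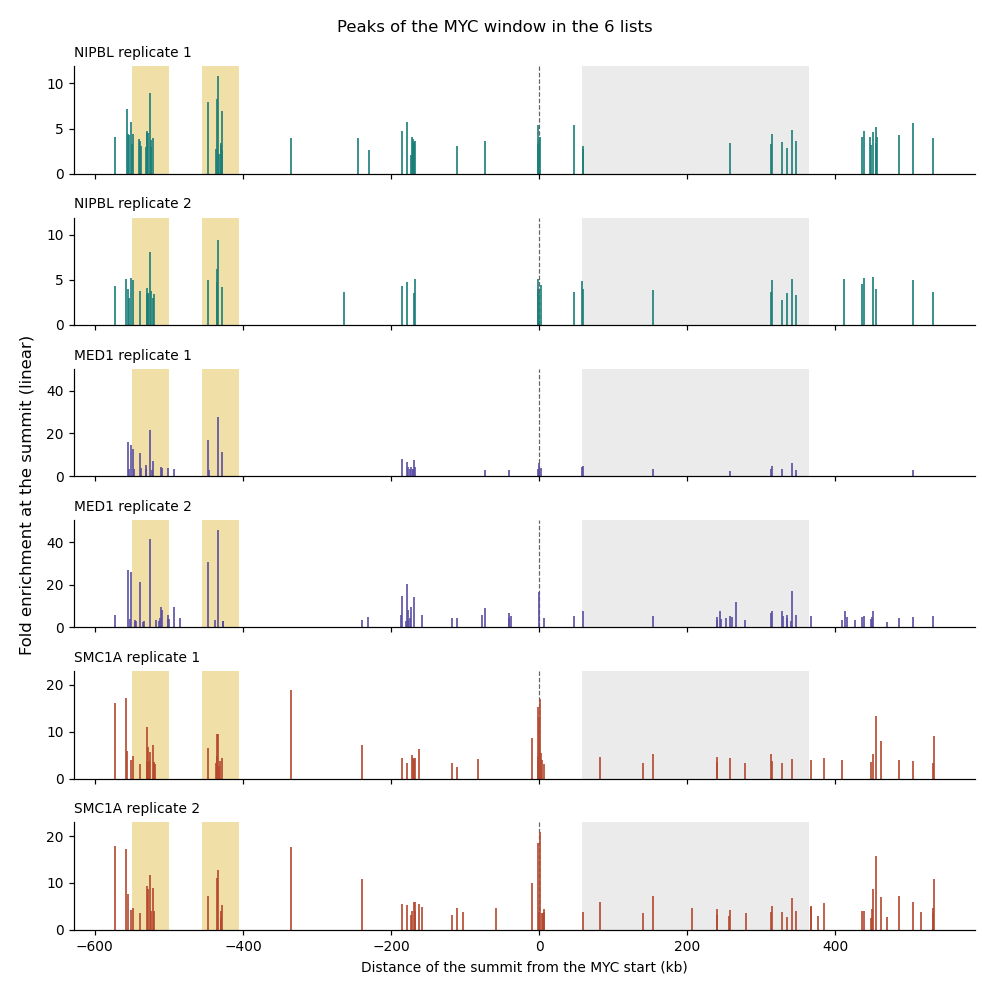
Fold enrichment (linear axis, a separate scale per protein) of every peak of the window in the 6 lists against the distance of its summit from the MYC start in kb. Yellow bands are the far and near enhancer segments, the grey band is PVT1 and the dashed line is the MYC start. NIPBL and MED1 reach their highest values in the yellow bands, while SMC1A peaks at the MYC promoter and at a lone site 335 kb upstream stand above its values in the yellow bands.

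The 50 kb of the far enhancer held 13 and 10 NIPBL peaks, 12 and 14 MED1 peaks, and 10 and 8 SMC1A peaks in replicates 1 and 2. MED1 intervals covered 38.7% and 54.1% of the segment, NIPBL intervals 19.4% and 12.4%, and SMC1A intervals 13.2% and 15.5%. Its centre was a MED1 region of 14411 bp, from 128216479 to 128230889, the third widest of all 15007 MED1 regions. Fold enrichment of MED1 there was 21.8 in replicate 1 and 41.6 in replicate 2. The region was 1 interval in replicate 2 and 5 peaks in replicate 1, which covered 80.0% of it, the widest of 7057 bp. Its full width was thus that of the replicate 2 interval. Under this merged MED1 region lay 6 separate NIPBL regions and 4 SMC1A regions.

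The strongest NIPBL region of the far enhancer, 128221312 to 128223594, was also the widest NIPBL region of the window at 2283 bp. Its fold enrichment was 8.89 in replicate 1 and 8.06 in replicate 2, at the 98.4th and 97.2nd percentile of the lists, from 84 and 69 fragments at the summit. The other 7 NIPBL regions of the segment were weaker. The region 128199298 to 128200232 stood at 4.38 and 4.95, and 128209089 to 128209612 at 3.64 and 3.73. A run of 3 regions from 128218069 to 128221085 had 4.48, 4.73 and 4.51 in replicate 1 and 4.08, 3.39 and 3.50 in replicate 2. The last regions, 128224027 to 128224394 and 128226705 to 128228746, had 3.77 and 3.91 in replicate 1 and 3.81 and 3.42 in replicate 2. NIPBL at this enhancer was thus 1 strong region among several weaker ones. These 7 stood at the 40.9th to 74.4th percentile in replicate 1 and at the 22.4th to 74.6th in replicate 2. The medians of the lists were 3.88 and 4.08. The strongest SMC1A region of the segment, 128218196 to 128219611, had 10.99 and 9.43, and the highest SMC1A peak of replicate 2, at 11.6, lay in the next region, 128219838 to 128223602, which had 6.72 in replicate 1 and spans the NIPBL maximum. Of the 8 NIPBL regions 7 overlapped both an SMC1A and a MED1 region, and all 6 SMC1A regions overlapped both NIPBL and MED1. Over the genome 47.8% of NIPBL regions and 11.0% of SMC1A regions overlapped both others.

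The enriched stretch did not end at the edge of the segment. Just upstream, NIPBL at 128190665 to 128192209 had 7.14 and 5.07, SMC1A at 128190650 to 128192777 had 17.2 and 17.3, and MED1 at 128190437 to 128195268 had 15.8 and 27.0. The next MED1 region, 128196138 to 128201971, had 14.6 and 25.7 and crosses the edge, with its summits on the upstream side. A further MED1 region at 128207503 to 128211369 had 11.0 and 21.3. When regions of any of the 3 proteins at most 10 kb apart were joined, the far enhancer and this flank formed a cluster of 65.0 kb, from 128190437 to 128255467, with 12 NIPBL, 8 SMC1A and 8 MED1 regions. It was the largest cluster of the window. Farther out, at 128175942 to 128176437, SMC1A had 16.1 and 17.8 beside a modest NIPBL region of 4.12 and 4.28 and no MED1 region.

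Between the enhancers lay 1 region alone, MED1 at 128254898 to 128255467 with 3.50 and 9.64. The near enhancer was smaller and held the highest NIPBL and MED1 values of the whole window. MED1 at 128311432 to 128320775, a region of 9344 bp and the 35th widest of all, had 27.8 and 45.8, at the 99.97th percentile of both lists. The MED1 summits of the replicates lay 1 bp apart. NIPBL at 128314544 to 128315677 had 10.8 and 9.43, at the 99.5th and 98.8th percentile, from 105 and 80 fragments. The other 3 NIPBL regions were also above the list median in both replicates: 128312349 to 128314337 had 8.26 and 6.17, 128300219 to 128301152 had 7.95 and 4.98, and 128319722 to 128320393 had 6.99 and 4.17. SMC1A peaked at 128314364 to 128316182 with 9.53 and 12.9. A second broad MED1 region, 128299358 to 128302709, had 16.8 and 30.6. The segment held 9 and 5 NIPBL peaks, 4 and 6 MED1 peaks and 8 and 6 SMC1A peaks. Each of its 4 NIPBL and 4 SMC1A regions overlapped regions of both other proteins.

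**Figure D2:**
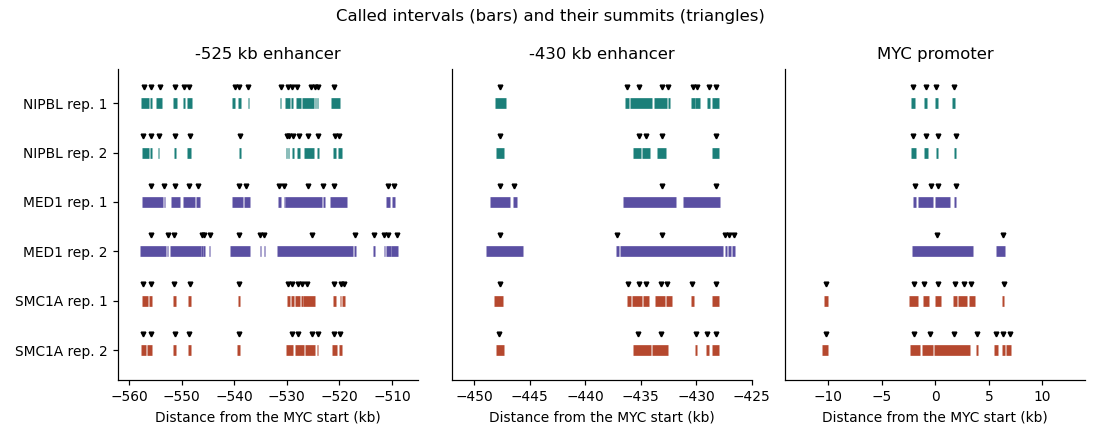
Called intervals (bars) and summits (triangles) of the 6 lists around the far enhancer, the near enhancer and the MYC promoter, against distance from the MYC start in kb, with a scale of its own in each panel. MED1 runs on in long intervals where NIPBL and SMC1A form several short ones, and MED1 replicate 2 joins stretches that replicate 1 splits.

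Long MED1 stretches were common at this locus. Of the 28 MED1 regions of the window 10 were wider than 2 kb, which is 35.7% (exact Clopper-Pearson 95% interval 18.6 to 55.9%), beside 8.24% over all MED1 regions. Apart from the enhancer and promoter regions and the region upstream of the far enhancer, these were 128575429 to 128578854 with 4.08 and 9.48, 128578940 to 128581118 with 7.45 and 14.3, and 128806489 to 128809105 at the PVT1 start with 4.66 and 7.76. The 10 regions spanned 55508 bp in all. NIPBL intervals covered 44.4% and 27.0% of that length and SMC1A intervals 34.4% and 40.4%. Within them lay 27 MED1 peaks of replicate 1 but 10 of replicate 2, whose intervals filled them entirely, beside 39 and 27 NIPBL peaks. Widths and peak counts of MED1 therefore depended on the library, while the fold enrichment of every one of the 28 MED1 regions was higher in replicate 2, as for 98.5% of all MED1 regions.

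At the MYC promoter the order of strengths differed. SMC1A was higher there than in either enhancer segment, on both sides of the start. This depends on where the far segment ends, since SMC1A at 128190650 to 128192777, just outside it, had 17.2 and 17.3. At the promoter the region before the start, 128745843 to 128746894, had 15.3 and 18.6, with summits 1.99 and 1.97 kb before the start and 108 and 156 fragments. The downstream region, 128748225 to 128752034, had 17.0 and 20.9, with summits 1.79 and 1.78 kb after the start. Between them a weaker SMC1A region, 128747114 to 128748101, had 4.83 and 3.87. NIPBL formed 4 short regions across the same stretch. The outer regions, 128746015 to 128746464 and 128749911 to 128750271, had 5.40 and 4.05 in replicate 1 and 5.09 and 4.40 in replicate 2, with summits close to those of SMC1A. The inner regions, 128747283 to 128747617 and 128748322 to 128748606, had 3.26 and 3.67 in replicate 1 and 4.001 and 3.50 in replicate 2. MED1 covered the promoter in 1 region of 5646 bp, 128746170 to 128751815, with 6.15 and 16.4. Every NIPBL and SMC1A region of the promoter overlapped both other proteins. These SMC1A peaks were high for the window but not for the genome, at the 77.3rd and 83.9th percentile at most. Within their own lists the highest promoter peaks of NIPBL stood at the 84.2nd and 77.5th percentile. Those of MED1 stood at the 89.2nd and 97.8th, so by percentile SMC1A was not the strongest at the promoter.

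Enhancers and promoter were compared by the highest fold enrichment in each library. For NIPBL the highest enhancer peak was 2.00 and 1.85 times the highest promoter peak in replicates 1 and 2, and for MED1 it was 4.53 and 2.79 times. For SMC1A the promoter was the higher, by 1.55 and 1.62 times. On the log2 scale, promoter over enhancer was −0.95 ± 0.08 for NIPBL, −1.83 ± 0.49 for MED1 and 0.66 ± 0.05 for SMC1A (SD, n = 2 libraries). The libraries of any 2 proteins did not overlap. The differences were −1.61 for NIPBL minus SMC1A, 2.49 for SMC1A minus MED1 and 0.88 for NIPBL minus MED1. The exact two-sided permutation test over libraries gave p = 0.333 for each pair, and 0.333 after adjustment over the 3 pairs, which is the smallest p that 2 libraries against 2 can give. Without MED1 replicate 1 or 2 the NIPBL difference from MED1 was 0.54 or 1.23. With enhancer segments of 50 kb to each side, the differences were −1.05 for NIPBL minus SMC1A, 1.93 for SMC1A minus MED1 and 0.88 for NIPBL minus MED1. In SMC1A replicate 1 the highest enhancer peak, 17.2, was then above the highest promoter peak, 17.0. In SMC1A replicate 2 the values were 17.8 and 20.9. The orders in the main segments hold for the highest peak and not for the median peak. The median NIPBL peak stood at 3.86 and 4.20 at the promoter and at 3.82 and 4.08 at the enhancers. That of MED1 stood at 3.56 and 16.4 at the promoter, where replicate 2 has a single peak, and at 4.62 and 3.45 at the enhancers. By median peaks the log2 differences were −0.91 for NIPBL minus MED1, 0.67 for SMC1A minus MED1 and −1.58 for NIPBL minus SMC1A. This comparison was chosen after the values were seen.

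**Figure D3:**
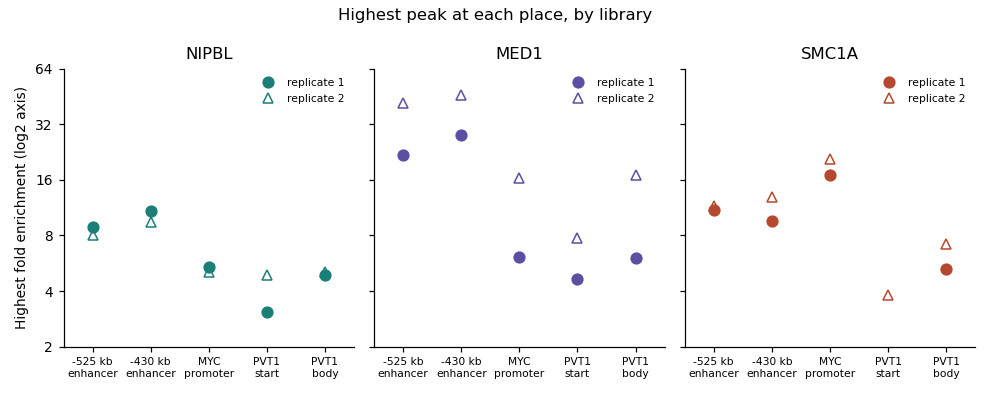
Highest fold enrichment (log2 axis) of each library at the far enhancer, the near enhancer, the MYC promoter, the PVT1 start and the rest of PVT1. NIPBL and MED1 are highest at the enhancers in both replicates, SMC1A at the MYC promoter, and SMC1A replicate 1 has no peak at the PVT1 start.

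The PVT1 start carried NIPBL and MED1 with little SMC1A. NIPBL at 128807113 to 128807772 had 3.09 and 3.97, and the highest NIPBL peak of the segment in replicate 2 was 4.86. MED1 had the 2617 bp region given above. SMC1A had no peak in replicate 1 and a single peak of 3.80 in replicate 2, so no SMC1A region. Between MYC and PVT1 the single NIPBL region, 128795659 to 128795966, had 5.40 and 3.62, and the single SMC1A region, 128754501 to 128754865, had 3.16 and 3.72. Neither overlapped a region of another protein, and no MED1 region lay in that stretch.

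Within the 306.7 kb of PVT1 peaks were sparser than in the enhancer segments. Their density was not set beside that of the genome. The body of the gene held 7 NIPBL peaks in each replicate, 7 and 19 MED1 peaks, and 11 and 15 SMC1A peaks, and intervals of each library covered 0.758 to 2.96% of its length. NIPBL was highest 341 kb from MYC, at 129088911 to 129089594, with 4.88 and 5.09. MED1 was highest at the same place, at 129088754 to 129089797, with 6.04 and 16.9. For SMC1A the strongest region was 128902131 to 128902632, 154 kb from MYC, with 5.27 and 7.21. All 6 NIPBL regions of the body lay in its last part, 312.8 to 347.5 kb from MYC, and 4 of them overlapped both other proteins. SMC1A was spread more widely, with 11 regions, of which 5 had neither NIPBL nor MED1.

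The median percentile of enhancer peaks minus that of PVT1 peaks came to 19.1 and 5.76 points in the NIPBL libraries, to 5.76 and 23.7 in those of SMC1A, and to 35.9 and −44.9 in those of MED1. No pair of proteins differed beyond the spread of the libraries (exact two-sided permutation p = 1 for each of 3 pairs). The MED1 replicates had opposite signs. At the enhancers replicate 2 had 20 peaks with a median percentile of 15.6, where replicate 1 had 16 peaks with a median of 70.3, although the highest enhancer peak was at the 99.97th percentile in both. The 2 enhancers together held 33.0 ± 0.512% of a library's window peaks for NIPBL, 23.4 ± 6.69% for SMC1A and 29.8 ± 8.10% for MED1 (SD, n = 2). The differences, 9.58 points between NIPBL and SMC1A, 3.15 between NIPBL and MED1 and −6.43 between SMC1A and MED1, had exact permutation p-values of 0.333, 1 and 0.667, each 1 after adjustment. None of these sizes was stable: without 1 library the first ran from 4.85 (without SMC1A replicate 2) to 14.3 (without SMC1A replicate 1), the second from −2.58 (without MED1 replicate 2) to 8.87 (without MED1 replicate 1), and the last from −12.2 to −0.70 without the same MED1 libraries.

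Between the near enhancer and MYC lay 402.5 kb with a single dense group. A cluster from 128562314 to 128586020, 23.7 kb long and 162 to 186 kb before MYC, held 4 NIPBL, 6 SMC1A and 6 MED1 regions. Its strongest NIPBL region, 128569121 to 128569663, had 5.78 and 4.72. Its strongest MED1 region by mean percentile, 128562314 to 128563448, had 7.998 and 14.9, and 128568783 to 128569968 had 6.55 and 20.4. The 4 NIPBL regions of this long stretch were all in that cluster and all overlapped both other proteins. On either side NIPBL was absent as a region for 242.0 and 165.2 kb. The first of these gaps held 2 SMC1A and no MED1 regions and the other 4 and 2. Another gap, of 253.2 kb, began 59.5 kb after the MYC start and took in most of PVT1, with 7 SMC1A and 2 MED1 regions. Single libraries still had scattered peaks in the gaps, 3 and 1, 2 and 0, and 2 and 1 for NIPBL replicates 1 and 2. For MED1 replicates 1 and 2 these counts were 0 and 6, 2 and 8, and 2 and 10, so the gaps were less empty of MED1 in replicate 2.

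SMC1A also lay at places with no region of the loader or of Mediator. The strongest was 128412884 to 128413284, 335 kb before MYC, with 18.9 and 17.7, above every SMC1A value in the 2 enhancer segments. Just upstream of the far segment SMC1A came close to it, with 17.2 and 17.3 at 128190650 to 128192777. Farther out, at 128175942 to 128176437, it had 16.1 and 17.8. The next sites with neither partner were 129281564 to 129282103 with 9.19 and 10.8, 128737725 to 128738305 with 8.75 and 9.92, 128508593 to 128509005 with 7.22 and 10.8, and 129209485 to 129209899 with 7.98 and 7.06. The site at 128737725 lay 10.3 kb before MYC. Single libraries had peaks at some of these sites: the strongest overlapped a NIPBL peak of replicate 1, and 128508593 to 128509005 a MED1 peak of replicate 2. Of the window's 49 SMC1A regions 7 overlapped no peak of another protein in any library, 14.3%, beside 66.9% of all SMC1A regions. Over the whole genome SMC1A regions with neither partner had a median fold enrichment of 11.5 and 12.9, and those with both had 4.37 and 5.32. In the window the medians were 4.23 and 5.28 for the 18 regions with neither, and 4.64 and 5.88 for the 24 with both, so the SMC1A regions alone here were, at the median, weaker than all such regions.

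Past PVT1, the downstream flank held 6 NIPBL and 10 SMC1A regions but 1 MED1 region. NIPBL at 129252540 to 129253095 had 5.60 and 4.94, and the MED1 region there, 129252533 to 129252979, had 2.75 and 4.82. SMC1A reached 13.4 and 15.7 at 129202980 to 129204126, 455 kb from MYC. Here 1 of 6 NIPBL regions overlapped both partners, against 4 of 4 at the promoter and 11 of 12 at the enhancers, beside 47.8% of all NIPBL regions. These counts are not independent. The 4 at the promoter lay under 1 MED1 region of 5646 bp, and 6 at the far enhancer under 1 of 14411 bp. MED1 replicate 2 had 14 peaks in this flank and replicate 1 had 1. Of the 5 NIPBL regions without a MED1 region there, 4 overlapped a MED1 peak of replicate 2. None could overlap one of replicate 1, whose window peaks all lay in MED1 regions.

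The shares of overlap were set beside those of all regions. Among the window's NIPBL regions, 31 of 39 overlapped an SMC1A region, 79.5% (63.5 to 90.7%) beside 62.4%, and 31 of 39 a MED1 region, beside 70.2%. The excess over all regions depended on how overlap was counted. With summits at most 200 bp apart, 41.0% met MED1 beside 62.0% of all NIPBL regions, and with every list shortened to 15357 top peaks, 11.4% met SMC1A beside 11.6%. Both partners were found at 27 of 39, 69.2% (52.4 to 83.0%) beside 47.8%, and neither at 4 of 39, 10.3% (2.87 to 24.2%) beside 15.2%. All 39 overlapped a peak of another protein in at least 1 library, as did all but 1.65% of NIPBL regions genome-wide. Of the 8 without a MED1 region 7 overlapped a MED1 peak of replicate 2, beside 2749 of 3465 genome-wide. None could overlap one of replicate 1, since every window peak of that library lay in a MED1 region. Genome-wide 12 of the 3465 did.

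SMC1A stood farthest from its background. Of its 49 regions 28 overlapped NIPBL, 57.1% (42.2 to 71.2%) beside 14.3%, and 27 overlapped MED1, 55.1% (40.2 to 69.3%) beside 17.5%. Both were found at 24, 49.0% (34.4 to 63.7%) beside 11.0%, and neither at 18, 36.7% (23.4 to 51.7%) beside 79.2%. For MED1, 17 of 28 regions overlapped NIPBL, 60.7% (40.6 to 78.5%) beside 49.3%, and 18 overlapped SMC1A, 64.3% (44.1 to 81.4%) beside 52.2%. Both were found at 15, 53.6% (33.9 to 72.5%) beside 34.5%, and neither at 8, 28.6% (13.2 to 48.7%) beside 33.0%. These intervals are exact Clopper-Pearson 95% intervals over regions and cover counting error only. Neighbouring regions share enhancers and are not replicates, so no test was made.

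**Figure D4:**
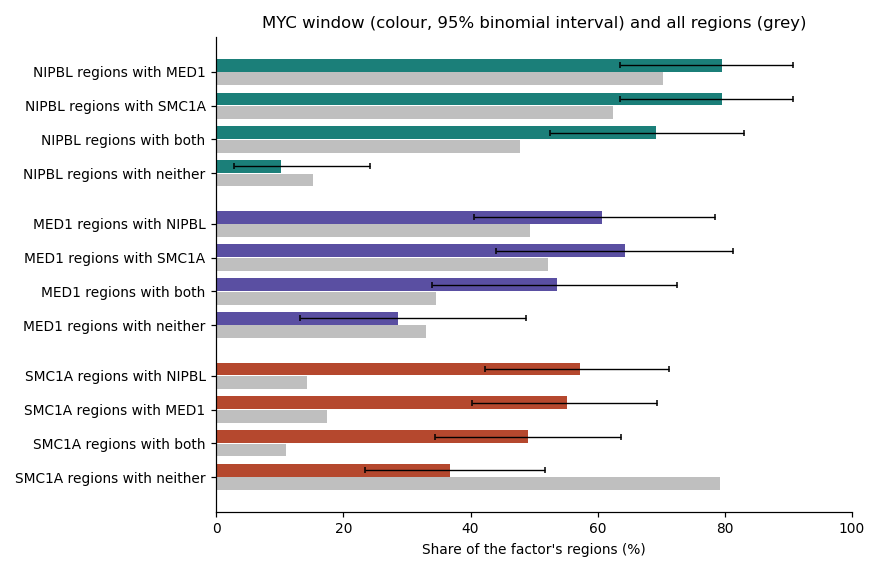
Share of each protein's regions that overlap regions of the others (%), in the MYC window (coloured bars, with exact 95% binomial intervals) and over all regions (grey bars). The colour and grey bars are farthest apart for SMC1A, with 36.7% of window regions and 79.2% of all regions free of NIPBL and MED1.

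Distances between summits were taken for all 39 NIPBL regions, with or without a partner region. From the NIPBL summit to the nearest SMC1A summit the median distance was 102 bp in replicate 1 and 93 bp in replicate 2, where NIPBL summits of the replicates were themselves 68 bp apart at the median. To the nearest MED1 summit it was 193 and 89 bp. At the enhancers the SMC1A medians were 62 and 118 bp, with 10 and 7 of 12 summits within 200 bp, and the MED1 medians 347 and 1581 bp, with 6 and 3 of 12. There MED1 replicate 2 had 1 summit in each interval of 14411 and 9344 bp, where NIPBL replicate 2 had 8 and 4 peaks. How far this sets the MED1 distances was not tested. By region summits of either replicate, 71.8% of window NIPBL regions met SMC1A within 200 bp, beside 58.1% of all. For MED1 these shares were 41.0% and 62.0%. Over PVT1 the SMC1A medians were 149 and 72 bp and the MED1 medians 79 and 58 bp.

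The peaks of the window took 30.4 ± 0.605 of every 10000 peaks for NIPBL, 21.6 ± 4.52 for MED1 and 11.2 ± 0.235 for SMC1A (SD, n = 2). Libraries of different proteins did not overlap, with differences of 19.2 between NIPBL and SMC1A, 8.76 between NIPBL and MED1 and −10.5 between SMC1A and MED1. Each exact permutation p was 0.333, the smallest possible, and 0.333 after adjustment over the 3 pairs. Without MED1 replicate 2 the NIPBL difference from MED1 was 5.56, and with every list shortened to 15357 top peaks the SMC1A difference from MED1 was −18.6. In strength the SMC1A peaks of the window stood low in their lists, with a median at the 21.6th and 27.4th percentile and 12 of 64 and 17 of 75 above the list median. The NIPBL medians were at the 51.7th and 51.8th percentile and those of MED1 at the 56.6th and 54.6th. The top 10% of the lists held 6 and 3 NIPBL peaks, 12 and 14 MED1 peaks and no SMC1A peak of the window.

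**Figure D5:**
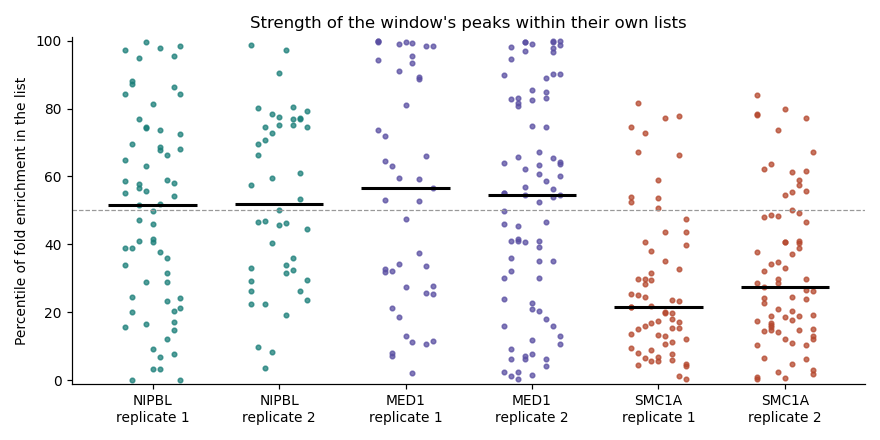
Percentile of fold enrichment within its own list for every peak of the window, by library. Black lines are medians and the dashed line is the median of a whole list. The SMC1A medians lie at 21.6 and 27.4, and the other 4 medians between 51.7 and 56.6.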

How the data were processed

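ChIP-seq peak lists of 6 libraries (NIPBL, SMC1A and MED1, 2 each) were used. Tools named in the submitters' processing notes are Trimmomatic 0.33, BWA 0.7.12 and MACS2 2.1.0, with build hg19. Each library had its peaks called by the authors separately, with pooled whole cell extract as control, per the labels. Fold enrichment, as deposited, is a linear ratio at the summit. Its evidence is in the deposited −log10 p and q-values, with a smallest −log10 q of 1.302. The deposited score repeats the q-value and was not used. The files hold no read totals. Fragment pileup and relative depth were solved from fold enrichment and p (tolerance 0.001 in −log10 p), assuming unscaled ChIP libraries. For 3 of the 83 MED1 replicate 2 peaks of the window no pileup was found.

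Python 3.11.15, pandas 2.3.3, numpy 2.4.6 and scipy 1.17.1 were used. Overlap meant at least 1 bp. Libraries were compared by exact two-sided permutation tests with Benjamini-Hochberg adjustment over 3 pairs. The overlap, region and pileup steps were tested on simulated data. Alternatives changed the threshold, list length, widths, overlap rule and libraries used. Members, lists and tests were chosen with earlier results of these data known. Named regions are the strongest of each protein in each segment, all MED1 regions wider than 2 kb, all NIPBL regions of the enhancers and MYC promoter, and the 5 strongest SMC1A regions alone. Further regions were named after their values were seen.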

Additional observations from a re-analysis of the deposited data

Results flagged for a closer look

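By the highest peak, NIPBL and MED1 went one way and SMC1A the other between the MYC promoter and the upstream enhancers. In both NIPBL and both MED1 libraries the highest promoter peak was below the highest enhancer peak, and in both SMC1A libraries it was above it. The log2 of promoter over enhancer differed by −1.61 for NIPBL minus SMC1A and by 2.49 for SMC1A minus MED1. The exact two-sided permutation test gave 0.333 for each, the smallest p this design allows, so neither difference passed a threshold. The SMC1A sign rests on the width of the enhancer segments. With 50 kb to each side, SMC1A replicate 1 had 17.2 at the enhancers and 17.0 at the promoter. Replicate 2 kept its sign, with 17.8 and 20.9. The opposite signs also rest on the highest peak: the median NIPBL peak was no lower at the promoter in either library (3.86 and 4.20 against 3.82 and 4.08), and that of MED1 replicate 2 was higher there (16.4, a single peak, against 3.45).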

How the results depend on the processing

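Of 122 alternatives 11 turned a direction and 8 moved a share beyond its interval, and the cause was not tested. The other 103 show no stability of the calls, since no p in this design can pass 0.05, and some of them moved far: with every list shortened to 15357 top peaks, enhancer share became 31.9 for NIPBL minus SMC1A and −28.7 for SMC1A minus MED1. Enhancer share, NIPBL minus MED1, ran from −2.58 to 8.87 points when libraries were left out, with the lowest without MED1 replicate 2. Enhancer minus PVT1 percentile turned most often: NIPBL minus SMC1A became 4.74 at −log10 q of at least 5 and 0.66 with ranks by −log10 p, and ran from −11.2 (without SMC1A replicate 1) to 6.68 (without SMC1A replicate 2). NIPBL minus MED1 became −18.1 at that threshold and −19.0 with the shortened lists, and ran from −23.5 to 57.3 without MED1 replicate 2 and 1. SMC1A minus MED1 became −22.9 at that threshold and ran from −21.2 to 59.6 without the same libraries. With the median peak, promoter over enhancer for NIPBL minus MED1 became −0.91. The pileup form of that comparison was not run for MED1, whose strongest peaks had no solved pileup.

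Shares are given with that over all regions. NIPBL with MED1 was 41.0% (all 62.0%) with summits within 200 bp and ran from 74.2% (55.1%) to 97.4% (93.8%), the highest without MED1 replicate 1. NIPBL with SMC1A was 11.4% (11.6%) with the shortened lists, and ran from 62.1% (49.7%) without NIPBL replicate 2 to 94.9% (79.2%) without SMC1A replicate 1. SMC1A with NIPBL or MED1, 63.3% (20.8%) in the main analysis, was 78.9% (37.9%) with peaks of either replicate and 100% (10.1%) with the shortened lists, where 3 regions were left, and ran from 58.7% (22.99%) to 83.7% (31.0%), the highest without MED1 replicate 1. With a replicate block the differences keep their values by construction, such as 19.2 for the window share of NIPBL minus SMC1A, and the smallest exact p was 0.5. Deviations of libraries with the same number correlated at 0.044, 0.067 and 0.030 over 5479 regions. Whether such libraries share a culture or a run cannot be told from these values. Depth limits weak binding: the lowest summit called in the window had 12 fragments, beside 7 over the whole lists.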

Other observations

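The chromosomes used were also cut into 2438 tiles as long as the window, to describe how crowded it is. At least as many peaks were found in 3 and 10 tiles for NIPBL replicates 1 and 2, in 29 and 44 for MED1, and in 64 and 97 for SMC1A. In tiles of 50 kb, 60671 in all, MED1 covered at least as much as in the far enhancer in 3 and 12 tiles, NIPBL in 13 and 17, and SMC1A in 18 and 43. For the near enhancer these numbers were 44 and 119, 81 and 117, and 81 and 304. In the far enhancer MED1 replicate 2 entered with 23373 bp. That leaves out an interval with its summit outside the segment, with which the covered length is 27030 bp. The window was placed around a known locus, so these ranks are a description.

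The window's edges differ between the proteins. The first NIPBL region inside it lay 126.0 kb from its start and the last one before it 160.6 kb outside, and for MED1 these distances were 140.4 and 165.5 kb. The first SMC1A region inside lay 125.9 kb from the start, but one lay 2.48 kb outside it, with 7.46 and 9.63. Regions of all 3 proteins in the window fell into 27 clusters when joined over 10 kb. The 9 clusters with 3 or more regions held 91 of the 116 regions and 34 of the 39 NIPBL regions. The 11 single regions were 8 of SMC1A, 2 of MED1 and 1 of NIPBL.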
